A study of Mus musculus with 23 samples.

Results

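Tumors that arise in the pancreas of mice without the glucagon receptor were set against sorted alpha cells without that receptor. The comparison holds 7 tumor libraries and 5 libraries of alpha cells sorted by flow cytometry, 12 of the 23 bulk RNA-seq libraries of the study, chosen by their labels alone. Both groups are labelled Homozygous knockout GCGR, GCGR being the glucagon receptor. The alpha cell mice are labelled with tamoxifen, given at 200 mg/kg for 5 days, with islets isolated and dispersed 14 to 21 days later. The tumors, dissected tissue, are labelled with treatment none, although the same tamoxifen text stands in the protocol field of every library. Reference groups were 8 libraries of non-tumor pancreatic tissue, also Homozygous knockout GCGR with treatment none, and 3 libraries of sorted alpha cells labelled Heterozygous GCGR with tamoxifen. Every group but the heterozygous one thus carries the homozygous loss. Age, strain, sex, the allele and the source of any recombinase are stated in none of the sources used. Nor do the labels say whether the libraries of a group come from separate mice, so p-values measure only the spread between these libraries, which may be technical.

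Alpha cells are the glucagon-producing cells of the pancreatic islet. Glucagon acts mainly on the liver, where its receptor drives glucose output and the breakdown of amino acids. Without the receptor amino acids accumulate in the blood and alpha cells multiply, and neuroendocrine tumors that make glucagon follow in mice and in people with inactivating mutations. The amino acid transporter Slc38a5 is known to appear in mouse alpha cells in that state. The study, by its title, asks whether such tumors start from some of the alpha cells in a manner that depends on amino acids.

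The authors deposited tumors and alpha cells in separate tables, so no value was compared across them. Instead the 19126 gene symbols found in both tables were ranked within each library by RPKM (reads per kilobase of transcript, scaled to library size; a level per length), and each symbol has a rank position, 1 being the highest. A symbol listed at 0 has position 19126. A symbol counts as nearer the top in tumors when all 7 tumor positions lie above all 5 knockout alpha positions, and the other way round. A stricter call also asks for median positions that differ at least 2-fold. These calls carry no test. Tumor status, deposited table, cell sorting, islet dispersal and the tamoxifen label all part the 12 libraries in the same way and cannot be told apart. For that reason the text says, for some genes and lists, where all 15 tissue libraries lay on one side of all 8 alpha cell libraries. Such a symbol parts the tables and not only the tumors. A gene or list without that remark may part the tables too. In bulk samples, fewer cells of a type and less RNA per cell cannot be told apart.

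By their most abundant transcripts the tumors resembled alpha cells. Gcg, which encodes glucagon (chr2:62474530-62483650 in GRCm38), was at position 1 in all 7 tumors and all 5 knockout alpha libraries. Its share of the summed RPKM was 29.1% to 49.8% in tumors and 75.0% to 80.9% in knockout alpha cells. Of the 500 symbols nearest the top by median, 311 were common to both groups, and of the top 50, 22 were. Of the tumors' top 50, 19 were genes of the acinar cell, the enzyme-secreting cell of the exocrine pancreas, against 0 in the knockout alpha cells. Spearman's rho across all symbols had a median of 0.862 (0.784 to 0.884) over the 35 tumor and knockout alpha pairs, 0.971 between tumors and 0.890 between knockout alpha libraries. Between tumors and non-tumor tissue it was 0.888, these sharing a table. These are descriptions across genes, which are not independent replicates. Within the tissue table, limma called 4274 of 13645 symbols (31.3%) higher in tumors than in non-tumor tissue and 3313 (24.3%) lower at an adjusted p under 0.05; on the centred log2(RPKM + 1) scale this split became 3786 and 6358, and on log2(RPKM + 0.1) 3040 and 5419. Of the 20 genes of an alpha cell identity list, 15 ranked higher in tumors than in non-tumor tissue and 4 lower.

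Some libraries stood apart. Symbols above 0 numbered 13706 to 14427 in tumors, 10663 and 10297 in knockout alpha libraries 1 and 2, and 12217 to 12368 in the other 3. Acinar genes held 31.4% of the summed values in tumor 7, 1.76% in tumor 2, 1.26% in tumor 5 and 8.90% to 13.5% in the other 4, against 81.6% to 87.6% in non-tumor tissue. They held at most 0.0180% in knockout alpha cells. Genes of leukocytes held 0.0668% in knockout alpha library 5 and 0.00597% to 0.0151% in the other 4. Heterozygous libraries 2 and 3 carried acinar values of 1.06% and 0.211%.

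Between tumors and knockout alpha cells, 1968 symbols (10.3% of 19126) were nearer the top in every tumor and 1702 (8.9%) in every knockout alpha library, while 15456 (80.8%) overlapped. With the 2-fold limit these numbers were 943 (4.93%) and 763 (3.99%). All 15 tissue libraries lay on one side of all 8 alpha cell libraries for 542 of the 943 and 540 of the 763. The split depends on how libraries are scaled. On log2(RPKM + 1), centred on the median of symbols above 0 in all 12 libraries, 1469 symbols were higher in every tumor and 8722 in every knockout alpha library, 3482 of the latter at 0 in all 12. On log2(RPKM + 0.1) these were 2016 and 6558. The median difference over all symbols, 0 by rank, was then -0.56 and -0.35. Differences below are given by rank, as fold differences between median positions, unless another scale is named.

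**Figure D1:**
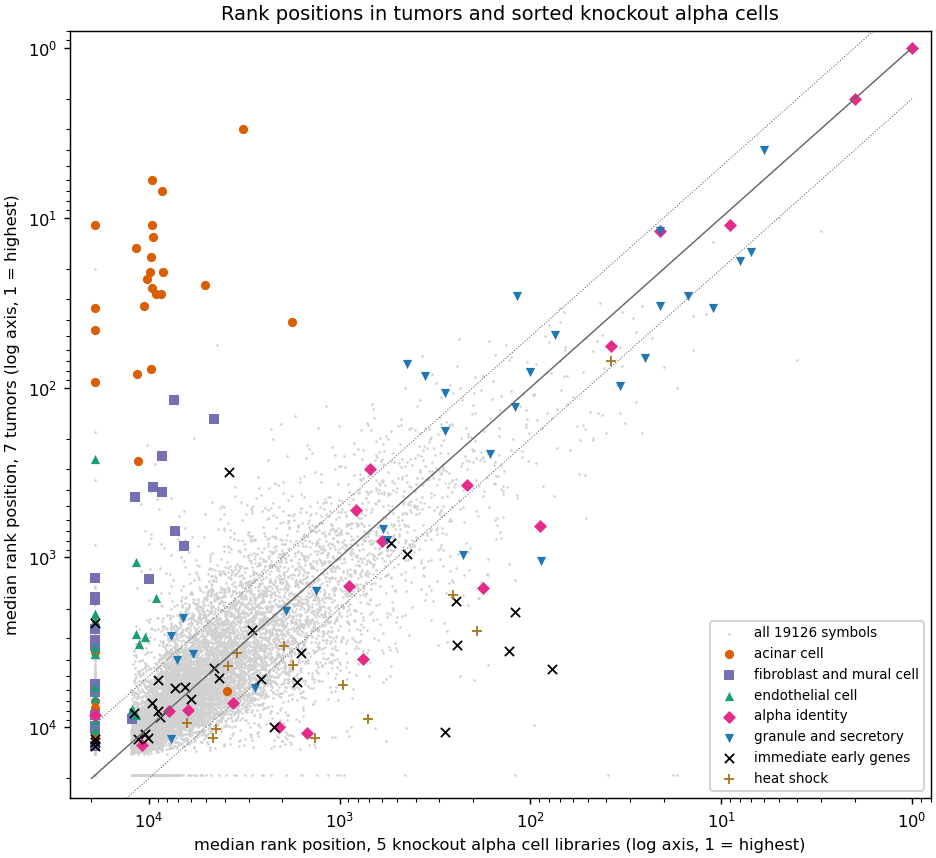
Median rank position of each of the 19126 shared symbols in the 5 knockout alpha libraries (x axis) and the 7 tumors (y axis), both log axes with 1 as the highest; the solid line marks equal positions and the dotted lines 2-fold. Acinar, fibroblast and endothelial genes lie far above the line, Gcg and Ttr at its upper end, and several immediate early and heat shock genes below it.

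**Figure D2:**
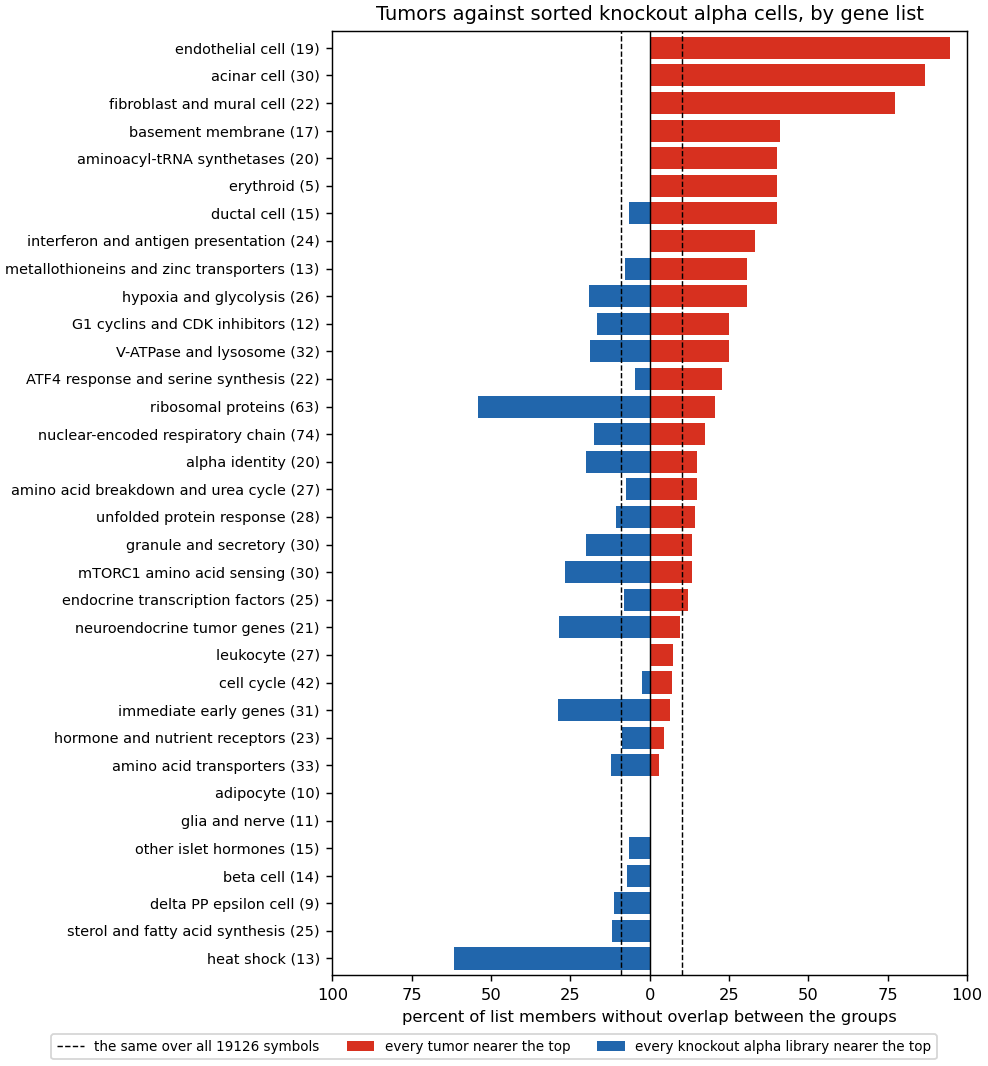
Percent of each list's members (number in brackets) for which every tumor was nearer the top (red, right) or every knockout alpha library was (blue, left); dashed lines give the same over all 19126 symbols, 10.3% and 8.9%. Endothelial, acinar and fibroblast lists reach furthest to the right, and heat shock and ribosomal protein lists furthest to the left.

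Of 20 alpha identity genes, 13 (65.0%, beside 80.8% over all symbols) overlapped, 3 (15%, beside 10.3%) were nearer the top in every tumor and 4 (20%, beside 8.9%) in every knockout alpha library; their median difference was -0.38 on the log2 scale against 0 over all symbols. The 3 were Irx1, Irx2 and Ldb2. Ldb2 was listed at 0 in every knockout alpha library and had a median of 8469 in tumors and 6791 in non-tumor tissue. Ttr, the transthyretin gene that alpha cells express strongly, was at position 2 or 3 in the tumors and at 2 in every knockout alpha library. Tmem27, a membrane glycoprotein gene of islet cells, was at 6 to 29 (median 11) in tumors and at 9, 10, 8, 9 and 11 in knockout alpha libraries 1 to 5. Gc, the vitamin D binding protein, was at 31 to 80 (median 57) against 50, 41, 35, 38 and 31. In non-tumor tissue Tmem27 was at 1160 to 6294 and Gc at 3590 to 7744, below every tumor.

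Among transcription factors, the homeobox gene Irx1 did not overlap. It was at 219 to 354 (median 303) in tumors and at 728, 1011, 577, 692 and 452 in knockout alpha cells, 2.28-fold apart. Irx2 was at 276 to 558 in tumors and at 1502, 777, 623, 954 and 824 in knockout alpha cells, and at 159, 215 and 660 in heterozygous cells. Nkx2-2, an islet-wide factor, was further from the top in tumors, at 907 to 1608 (median 1089) against 853, 495, 447, 412 and 513. For Nkx2-2 all tissue lay below all alpha cells. Etv1, an ETS factor named after its values were seen, had a wider gap. It lay at 3130 to 5715 in tumors and at 143, 92, 167, 179 and 190 in knockout alpha cells, 25.7-fold apart. Heterozygous cells had it at 218, 496 and 273, and non-tumor tissue at 12131 or lower in the ranking, so Etv1 parted all tissue from all alpha cells. By limma it was also higher in tumors than in non-tumor tissue (log2 difference of positions 1.85 ± 0.16 SE, adjusted p = 9.22e-08). Of 25 endocrine transcription factors, 20 (80.0%) overlapped, about the share over all symbols.

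The 4 identity genes nearer the top in every knockout alpha library were Slc7a2, Peg10, Fap and Dpp4. For 3 of the 4 all tissue lay below all alpha cells. Slc7a2, a carrier of arginine and lysine, was at 53, 122, 89, 79 and 159 in knockout alpha cells and at 240 to 912 (median 651) in tumors. Peg10, a retrotransposon-derived imprinted gene, was at 136, 81, 195, 177 and 194 against 428 to 7342 (median 1518), 8.58-fold apart. Heterozygous cells had Peg10 at 2529, 2228 and 870, among the tumors. Fap, a serine protease gene, was at 1120 to 1580 in knockout alpha cells and at 9817 to 11534 in tumors, and Dpp4, a related peptidase, at 1952 to 2226 and at 7318 to 11358. Non-tumor tissue had Fap at 7473 to 10096, overlapping with the tumors.

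Hormone genes of other islet cells varied among tumors far more than among sorted cells. Ppy, pancreatic polypeptide, was at 4 or 5 in all 5 knockout alpha libraries and at 5 to 212 (median 69) in tumors. Pyy, peptide YY, was at 3 in every knockout alpha library and at 4 to 73 (median 12) in tumors, without overlap. Sst, somatostatin, was at 72, 28, 16, 20 and 8 in knockout alpha cells and at 21 to 2587 (median 76) in tumors. Ins1 and Ins2, near-identical insulin genes whose reads may be shared, reached from 8 to 4957 and from 5 to 5119 in tumors, tumor 4 being nearest the top and tumor 3 furthest from it. In knockout alpha cells they were at 22 to 85 and at 19 to 79. The transcript of the receptor itself, Gcgr, was listed at 0 in all 7 tumors, in 4 of 5 knockout alpha libraries (position 10871 in library 4) and in all 3 heterozygous libraries, so its level does not check the genotype labels.

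Within the secretory granule, genes differed in both directions. Of 30 granule and secretory genes, 4 (13.3%, beside 10.3% over all symbols) were nearer the top in every tumor. In every knockout alpha library 6 were (20%, beside 8.9%). All 10 were past the 2-fold limit, and the other 20 overlapped. On the centred log2(RPKM + 1) scale the counts turned to 7 and 4 and the median from -0.15 to 0.22. Chga, chromogranin A, was at 3 to 9 (median 4) in tumors and at 6 in each knockout alpha library. Pcsk2, the protease that cuts glucagon from its precursor, was at 4 to 29 (median 12) and at 19, 21, 27, 21 and 19. Both overlapped.

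Nearer the top in tumors were Pcsk1n, Sez6l2, Eef1a2 and Rab3d. Pcsk1n, which encodes an inhibitor of the granule protease PC1, was at 13 to 46 (median 29) in tumors and at 118, 120, 133, 107 and 92 in knockout alpha cells. Sez6l2, a seizure-related membrane protein gene, was at 86 to 159 (median 107) against 311, 267, 279, 230 and 370. Rab3d, a GTPase of secretory vesicles that acinar cells also use, was at 1469 to 3728 against 4860 to 9241, and lay at 326 to 1195 in non-tumor tissue. Further from the top in tumors were Snap25, Vamp2, Cadps, Scg3, Chgb and Slc30a8. Snap25, a SNARE of vesicle fusion, was at 851 to 1366 (median 1050) in tumors and at 83, 88, 120, 87 and 107 in knockout alpha cells, 11.9-fold apart. Vamp2, its partner on the vesicle, was at 911 to 1668 (median 970) against 227, 444, 183, 225 and 209. Scg3, secretogranin III, was at 18 to 64 against 11, 13, 11, 11 and 15, Chgb, chromogranin B, at 42 to 90 against 24 to 32, and Slc30a8, the zinc transporter of granules, at 79 to 548 against 20 to 42. For Snap25, Vamp2, Chgb, Slc30a8 and Cadps, a priming factor of vesicles, all tissue lay below all alpha cells. Within the tissue table Snap25 was still higher in tumors than in non-tumor tissue (limma log2 difference 3.18 ± 0.18 SE, adjusted p = 7.08e-10), as was Vamp2 (1.87 ± 0.14, adjusted p = 1.38e-08).

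Of the genes far apart between knockout and heterozygous alpha cells, 5 are given whose tumor positions overlapped with those of knockout alpha cells. All but Slc38a5 were chosen for that pattern after their values were seen, and others, such as Peg10 and Egr1, did not show it. Slc38a5, which carries glutamine and some other amino acids into cells (chrX:8271133-8280179 in GRCm38), was at 11 to 79 (median 33) in tumors and at 32, 26, 20, 26 and 25 in knockout alpha cells. Heterozygous cells had it at 1341, 389 and 1269, below every tumor, and non-tumor tissue at 95 to 361, the acinar cell being another site of this gene. Vgf, a granule protein and growth-factor-induced gene, was at 53 to 273 (median 86) in tumors and at 359, 236, 385, 525 and 283 in knockout alpha cells, with heterozygous cells at 3479, 6511 and 5687. Dapl1, a gene related to a death-associated protein, was at 25 to 1048 (median 75) against 33, 29, 18, 35 and 105, with heterozygous cells at 2156 to 6484. Cd2, best known as an adhesion receptor of T cells, was at 574 to 947 (median 737) against 1434, 203, 323, 644 and 2253, and heterozygous cells had it at 7799 to 9525. Cav1, which encodes the coat protein of caveolae and which endothelial cells also express, was at 775 to 2808 (median 1032) against 452, 252, 412, 472 and 1021. The heterozygous positions of Cav1 are not reported here. All 5 genes overlapped between tumors and knockout alpha cells, yet the medians of Vgf, Dapl1 and Cav1 were more than 2-fold apart. Vgf was nearer the top in tumors (86 against 359), and Dapl1 (75 against 33) and Cav1 (1032 against 452) were further from it.

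**Figure D3:**
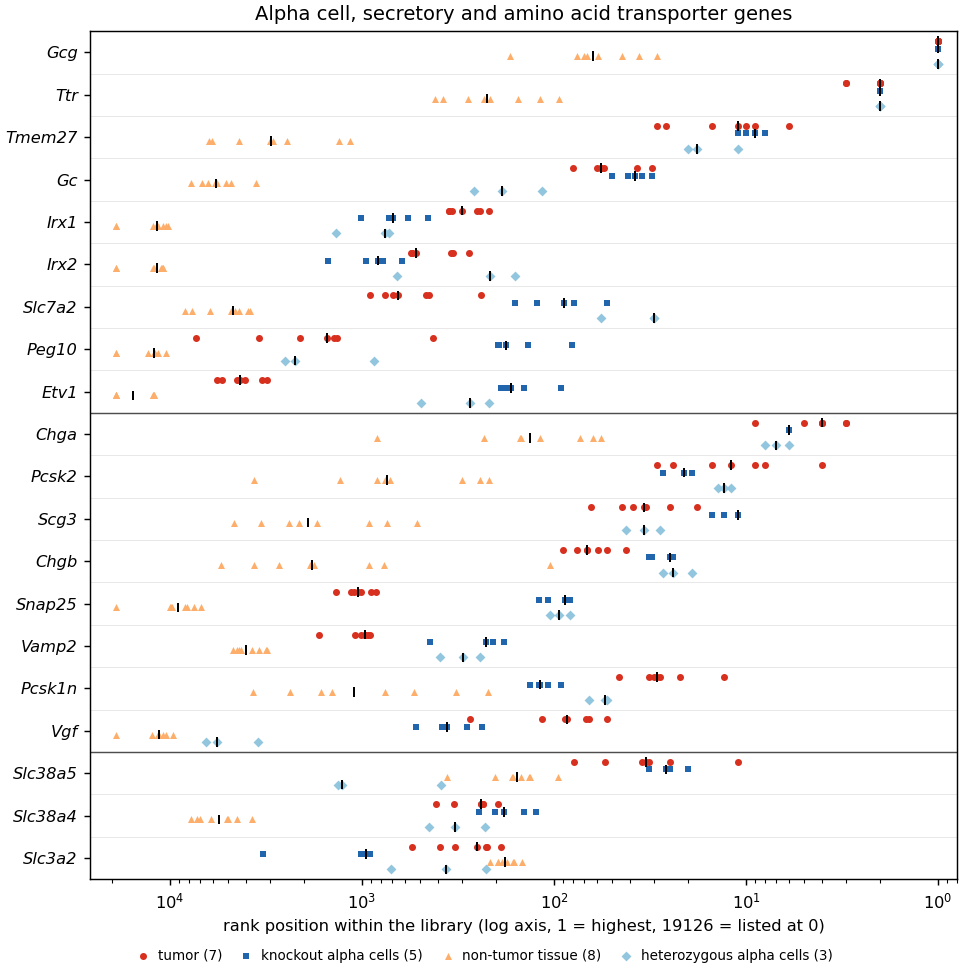
Rank position (log axis, 1 = highest) in every library for alpha cell genes (top block), granule genes (middle) and amino acid transporters (bottom); each point is a library and the black bars are group medians. Tumors and knockout alpha cells coincide for Gcg, Ttr and Slc38a5, and part for Irx1, Slc7a2, Etv1, Snap25, Vamp2 and Pcsk1n.

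Amino acid transport showed little that parted the groups. Of 33 transporter genes, 28 overlapped, 1 was nearer the top in every tumor and 4 in every knockout alpha library, shares of 3.03% and 12.1% beside 10.3% and 8.9% over all symbols. The one nearer the top in tumors was Slc3a2, the heavy chain that carries several transporters to the membrane, at 189 to 548 (median 253) against 949, 3299, 909, 911 and 1007. Non-tumor tissue had it at 146 to 215, overlapping only with tumor 7. The 4 in the other direction were Slc7a2, given above, Slc3a1, the partner chain of cystine transport, at 383, 3254, 1180, 689 and 889 against 3685 to 6039 in tumors, Slc7a10, a carrier of small neutral amino acids, and Slc38a9, an arginine sensor of the lysosome. For 3 of these 4 all tissue lay below all alpha cells. Slc38a4, a carrier of neutral amino acids, overlapped, at 195 to 411 in tumors and at 124, 144, 245, 182 and 202 in knockout alpha cells.

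Genes that cells raise through ATF4 when amino acids are short or the endoplasmic reticulum is loaded overlapped in 16 of 22 cases. Nearer the top in tumors were 5 (22.7%, beside 10.3% over all symbols), and in knockout alpha cells 1, Atf3 (4.55%, beside 8.9%). For 4 of the 5, and for Atf3, all tissue lay on one side of all alpha cells. Atf4 itself was at 258 to 500 (median 326) in tumors and at 911, 211, 327, 328 and 236 in knockout alpha cells. Asns, asparagine synthetase, was at 634 to 1847 (median 1367) and at 3051, 2660, 2328, 1766 and 768, with non-tumor tissue at 87 to 128. Pycr1, an enzyme of proline synthesis, did not overlap, at 1522 to 2859 (median 2258) in tumors and 5224 to 9946 in knockout alpha cells. Of these 22 genes, 15 were lower in tumors than in non-tumor tissue by limma and 1 was higher. Over all symbols tested 24.3% were lower and 31.3% higher. Aminoacyl-tRNA synthetases, which charge tRNAs, were nearer the top in every tumor for 8 of 20 (40%, beside 10.3% over all symbols). In every knockout alpha library 0 were, and the median difference was 0.84. Sars, seryl-tRNA synthetase, was at 472 to 719 (median 597) in tumors and at 5834, 1709, 2413, 3793 and 2236 in knockout alpha cells. Non-tumor tissue had Sars at 323 to 407, and 11 of the 20 synthetases were lower in tumors than there. Non-tumor tissue, where acinar genes held most of the summed values, thus had both lists nearer the top, and the part of acinar RNA in the tumors' positions was not tested.

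For mTORC1, the kinase complex that senses amino acids, 18 of 30 genes overlapped, 4 (13.3%, beside 10.3% over all symbols) were nearer the top in tumors and 8 (26.7%, beside 8.9%) in knockout alpha cells. Past the 2-fold limit were 2 of the 4 and 3 of the 8. One of the 3, Lamtor3, had a median at 0 in tumors and in non-tumor tissue. With the heterozygous libraries added the 4 and 8 became 4 and 5. Mtor, the kinase of the complex, was at 6909 to 7507 (median 7245) in tumors and at 3880, 4522, 6889, 6059 and 5112 in knockout alpha cells. Sesn3, a sestrin that restrains mTORC1, was at 1376 to 4727 (median 1539) against 830, 684, 617, 662 and 1048. Nprl3, a subunit of the complex that shuts mTORC1 off when amino acids fall, was at 2364 to 3638 (median 2847) against 5276 to 7746.

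The lists with the highest share nearer the top in tumors were those of other pancreatic cells. Over all symbols this share was 10.3%. Of 30 acinar genes 26 were, and none was nearer the top in knockout alpha cells, with a median difference of 8.34 on the log2 scale. Cpa1, carboxypeptidase A1, was at 5 to 43 (median 7) in tumors and at 9795, 8554, 5014, 10439 and 8503 in knockout alpha cells. Pnliprp1, a lipase-related gene, was at 7 to 66 (median 15) against 10257 or lower. Tumors 2 and 5 had the 2 furthest positions for both. The 10 symbols with the widest gap toward tumors were acinar genes or Reg2, a regenerating-protein gene. Trypsin genes among them share near-identical copies and are uncertain. Reg3b, an antimicrobial lectin gene of injured pancreas, was at 31 to 794 (median 182) in tumors and was listed at 0 in 4 of 5 knockout alpha libraries, with non-tumor tissue at 26 to 2824. Adding the heterozygous libraries to the alpha cells lowered the acinar count from 26 to 10, as heterozygous libraries 2 and 3 carry these transcripts.

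Of 19 endothelial genes, 18 were nearer the top in every tumor, 8 were listed at 0 in all 5 knockout alpha libraries, and the median difference was 2.05. For 14 of the 18 all tissue lay above all alpha cells. Plvap, a protein of fenestrated capillaries, was at 134 to 478 (median 262) in tumors and listed at 0 in every knockout alpha library. Cdh5, the cadherin of endothelial junctions, was at 1751 to 5997 (median 2154) and likewise listed at 0. Of 22 fibroblast and mural genes, 17 were nearer the top in tumors, with a median difference of 2.92. For 14 of the 17 all tissue again lay above all alpha cells. Sparc, a matrix protein, was at 96 to 932 (median 118) in tumors and at 10314, 6183, 5365, 10550 and 7421 in knockout alpha cells, and Bgn, the proteoglycan biglycan, at 120 to 2201 (median 253) against 3278 to 9921. Col4a1, basement membrane collagen, was at 174 to 2864 (median 449) against 6856 to 8972. Among tumors, tumor 3 was the furthest from the top for Sparc, Bgn and Col4a1. Against non-tumor tissue these genes did not pass the limma test, with adjusted p-values of 0.125 for Sparc, 0.206 for Bgn and 0.318 for Col4a1, and none of the 19 endothelial genes was higher in tumors than there, while 6 were lower. Basement membrane genes were nearer the top in tumors than in knockout alpha cells for 7 of 17 (41.2%, beside 10.3% over all symbols).

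Leukocyte genes mostly overlapped, 2 of 27 (7.41%, beside 10.3% over all symbols) being nearer the top in every tumor. C1qa, a complement gene of macrophages, was at 146 to 678 (median 282) in tumors and at 19126, 9275, 9264, 9850 and 3639 in knockout alpha cells. Csf1r, the macrophage growth factor receptor, was at 1379 to 7149 against 10505, 8098, 11465, 19126 and 5791, overlapping through library 5. Without knockout alpha library 5 and tumor 7, 10 of 27 were nearer the top in every tumor, as were 2531 of all 19126 symbols. Apoe, an apolipoprotein of macrophages and stroma that was named after its values were seen, was at 41 to 111 (median 56) in tumors and at 8953, 2820, 4377, 8471 and 112 in knockout alpha cells. Library 5 is the one with the highest leukocyte share. Of 15 duct genes, 6 (40%, beside 10.3% over all symbols) were nearer the top in tumors and 1 (6.67%, beside 8.9%) in knockout alpha cells. Against non-tumor tissue 11 of the 15 were lower in tumors by limma and 2 were higher. Over all symbols tested 24.3% were lower and 31.3% higher. Krt7, a keratin of ducts, was at 144 to 279 (median 178) in tumors, at 787, 1719, 718, 776 and 598 in knockout alpha cells and at 1104 to 5985 in non-tumor tissue, where ducts are present. Tff2, a trefoil peptide, was at 98 to 3288 in tumors, furthest from the top in tumors 2 and 5, and listed at 0 in all knockout alpha libraries. Its median in non-tumor tissue was 26. No gene of the glial (11 genes) or adipocyte (10 genes) list parted the groups.

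In the other direction lay heat shock genes and some immediate early genes. Immediate early genes respond to stimulation or tissue handling within minutes, and heat shock genes encode chaperones that cells raise when proteins unfold. Of 31 immediate early genes, 9 were nearer the top in every knockout alpha library and 2 in every tumor. These shares were 29.0% and 6.45%, beside 8.9% and 10.3% over all symbols. For all 9 the whole tissue table lay below the whole alpha cell table. Fos was at 54, 326, 301, 122 and 129 in knockout alpha cells and at 808 to 9174 (median 3571) in tumors. Fosb was at 82, 101, 538, 471 and 279 against 7807 to 12263 (median 10584), and Egr1 at 28, 77, 105, 88 and 62 against 2253 to 7692 (median 4517). Heterozygous alpha cells, which were sorted too, had Fos at 47, 32 and 27, Fosb at 68, 29 and 44 and Egr1 at 15, 12 and 13, above every knockout library. Non-tumor tissue had Fos at 1616 to 5748, within the range of the tumors. Jund, another member of the same factor family, went the other way, at 224 to 400 (median 314) in tumors and at 4942, 3589, 3779, 3443 and 3917 in knockout alpha cells, again with non-tumor tissue, at 246 to 435, beside the tumors. The median difference of the 31 genes was -0.06.

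Of 13 heat shock genes, 8 (61.5%, beside 8.9% over all symbols) were nearer the top in every knockout alpha library, all past the 2-fold limit, and 0 in every tumor, with a median difference of -1.29. For 7 of the 8 all tissue lay below all alpha cells. Dnajb1, a co-chaperone of HSP70, was at 69, 84, 268, 190 and 198 in knockout alpha cells and at 2399 to 3300 (median 2718) in tumors, 14.3-fold apart. Hsph1, an HSP70 exchange factor, was at 254, 377, 123, 229 and 343 against 885 to 2167 (median 1663). Heterozygous cells had Dnajb1 at 58, 27 and 42 and Hsph1 at 214, 175 and 148. Hspe1, the small mitochondrial chaperonin, was at 1399, 754, 868, 958 and 1129 against 4782 to 7362 (median 5617). Hspe1, Hspa8 and the HSP70 pair Hspa1a and Hspa1b have near-identical copies in the genome among which counting can split reads, so their positions are uncertain. The part of sorting and dispersal in both lists was not tested.

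Heat shock factors bind inverted repeats of a short unit, and the pair of units searched for here is GAANNTTC, which reads the same on both strands. RefSeq promoter windows of GRCm38.p6 (250 bases before to 50 after the start) were found for 7 of the 8 genes, and 5 of the 7 (71.4%) held the pair in at least one window, against 9.04% of 27025 genes. Of the 5 heat shock genes whose groups overlapped, windows were found for 3 (Bag3, Hspb1 and Hspd1), and all 3 held the pair, Hspd1 in the same bases as its neighbour Hspe1. Shown are the windows of Dnajb1 and Hsph1, the 2 widest gaps among members without such copies, and of Hspe1, each 5′ to 3′ on the gene's strand with the pair in capitals. The Dnajb1 window, and a further one of that gene, held no match to these letters.
Dnajb1, chr8:83607925-83608224 (+): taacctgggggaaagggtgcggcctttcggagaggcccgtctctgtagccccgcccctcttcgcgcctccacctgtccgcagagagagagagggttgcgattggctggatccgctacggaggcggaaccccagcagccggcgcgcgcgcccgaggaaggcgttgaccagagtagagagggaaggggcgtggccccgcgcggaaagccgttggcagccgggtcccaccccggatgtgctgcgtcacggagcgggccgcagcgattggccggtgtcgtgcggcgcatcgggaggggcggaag
Hsph1, chr5:149636266-149636565 (-): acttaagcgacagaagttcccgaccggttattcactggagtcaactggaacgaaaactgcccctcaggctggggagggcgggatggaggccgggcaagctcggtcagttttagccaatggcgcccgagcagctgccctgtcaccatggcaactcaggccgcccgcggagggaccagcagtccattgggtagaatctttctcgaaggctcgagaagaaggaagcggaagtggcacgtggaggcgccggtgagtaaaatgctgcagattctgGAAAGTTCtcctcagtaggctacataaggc
Hspe1, chr1:55087898-55088197 (+): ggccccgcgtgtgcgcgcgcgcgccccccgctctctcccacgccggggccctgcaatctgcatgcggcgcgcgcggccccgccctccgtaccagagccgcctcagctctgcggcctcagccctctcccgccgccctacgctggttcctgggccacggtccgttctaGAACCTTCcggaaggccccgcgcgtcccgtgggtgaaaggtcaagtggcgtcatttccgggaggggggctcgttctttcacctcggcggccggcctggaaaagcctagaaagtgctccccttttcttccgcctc
A match is a description of the letters and no evidence of binding.

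**Figure D4:**
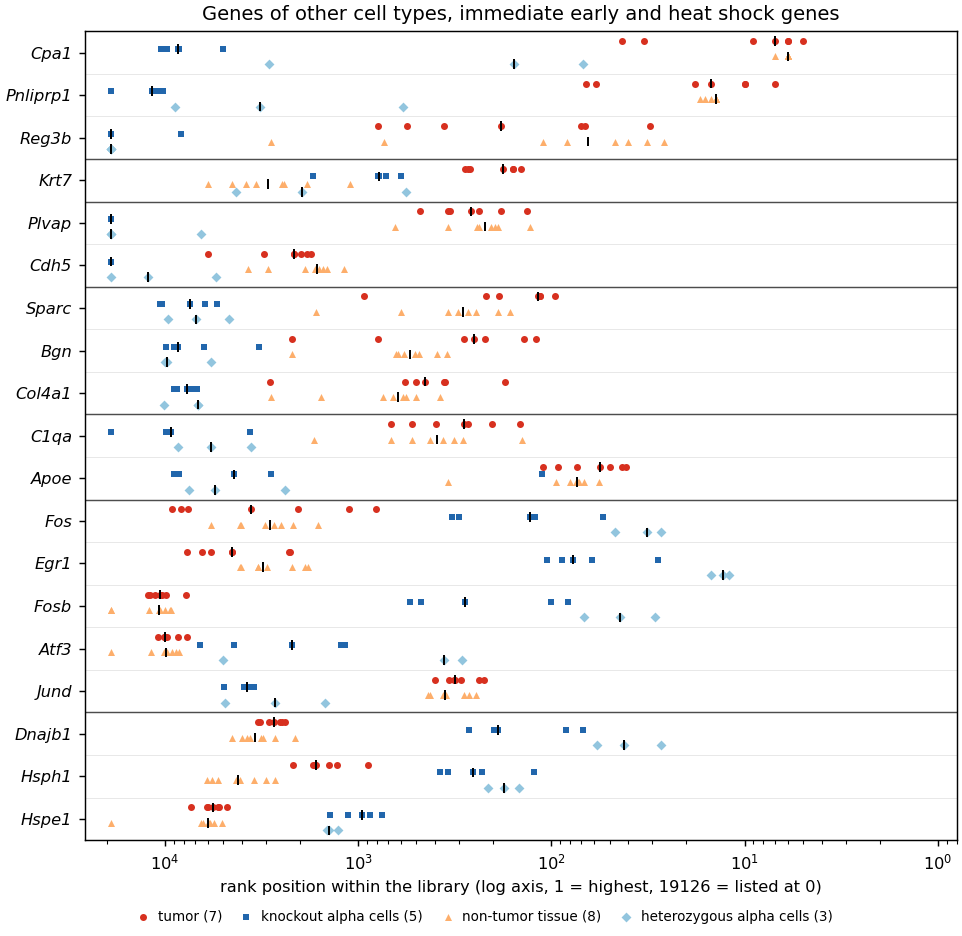
Rank position (log axis, 1 = highest, 19126 = listed at 0) in every library for acinar, duct, vessel, stromal and leukocyte genes and Apoe (upper blocks) and for immediate early and heat shock genes (the lower blocks); each point is a library and the black bars are group medians. Plvap is at 0 in every knockout alpha library while every tumor is within position 478, and heterozygous alpha cells sit beside or above knockout alpha cells for Fos, Egr1, Fosb and Dnajb1.

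Of 42 cell cycle genes, 38 overlapped, 3 were nearer the top in every tumor and 1 in every knockout alpha library, shares of 7.14% and 2.38% beside 10.3% and 8.9% over all symbols. Mki67, the standard marker of cycling cells, was at 4822 to 9310 (median 6624) in tumors and at 7635, 7405, 4130, 6895 and 4863 in knockout alpha cells. Top2a, a topoisomerase of dividing cells, was at 3814 to 8737 (median 5477) and at 6243, 9885, 4617, 8412 and 8767. These positions are far down the ranking, and the read depth of the alpha cell libraries is unknown. Of the genes that gate entry into the cycle, Cdkn2a, the locus of p16 and p19ARF, was at 1375 to 6603 (median 5364) in tumors and at 7582 or lower in knockout alpha cells, 2 libraries being at 0. Non-tumor tissue had Cdkn2a at 9497 or lower (limma log2 difference 1.79 ± 0.30 SE, adjusted p = 8.66e-05). Cdkn2d, the inhibitor p19INK4d, was at 4106 to 5864 in tumors and listed at 0 in all 8 alpha cell libraries. Cdkn2c, the inhibitor p18, overlapped, at 1514 to 2525 in tumors and at 2185, 5614, 5113, 4107 and 7156. Ccnd2, cyclin D2, was further from the top in tumors, at 116 to 277 (median 169) against 51, 58, 57, 59 and 38, and Cdkn1a, the inhibitor p21, at 1206 to 1815 (median 1293) against 1065, 668, 362, 324 and 180.

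Genes mutated in neuroendocrine tumors were counted from a list of 21. Of these, 13 overlapped, 2 (9.52%, beside 10.3% over all symbols) were nearer the top in tumors and 6 (28.6%, beside 8.9%) in knockout alpha cells, and for 4 of the 6 all tissue lay below all alpha cells. Past the 2-fold limit were 0 of the 2 and 3 of the 6. Men1, which encodes menin, was at 2471 to 3915 (median 3095) in tumors and at 5590, 1225, 6099, 5417 and 4620 in knockout alpha cells. Daxx, a histone chaperone, overlapped, at 3005 to 3964 in tumors and at 7259, 8997, 7396, 3928 and 3601. Its partner Atrx was at 2706 to 4845 (median 3479) in tumors and at 799, 828, 1190, 757 and 1207 in knockout alpha cells, and Setd2, a histone methyltransferase, at 4096 to 4972 against 1568 to 2387. Atrx lay at 680, 619 and 669 in heterozygous cells and at 4261 to 6356 in non-tumor tissue. Both are long genes. Symbols nearer the top in knockout alpha cells by 2-fold and above 0 in all 12 libraries had a median transcript length of 4756 bases and a GC content of 47.0%. Those nearer the top in tumors by 2-fold had 2813 bases and 53.4%, and all such symbols 3625 bases and 49.4%; the part of length and base composition in the calls was not tested.

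Of 24 genes of interferon response and antigen presentation, 8 (33.3%, beside 10.3% over all symbols) were nearer the top in every tumor. In every knockout alpha library 0 were, beside 8.9% over all symbols. By limma 3 of the 24 were higher in tumors than in non-tumor tissue and 1 lower, smaller shares than the 31.3% and 24.3% over all symbols tested. Tapbp, which loads peptides onto MHC class I, was at 380 to 1117 (median 534) against 3809, 4315, 1742, 2047 and 2548. The class I gene H2-D1 was at 61 to 116 (median 103) against 195, 146, 182, 194 and 156, while H2-K1 overlapped; class I genes are near copies of each other and are uncertain. B2m, their common light chain, overlapped at 14 to 148 and at 936, 50, 72, 174 and 82. In the endoplasmic reticulum, 4 of 28 genes (14.3%) were nearer the top in tumors and 3 (10.7%) in knockout alpha cells, near the 10.3% and 8.9% over all symbols. Hsp90b1, its HSP90, was at 43 to 92 (median 60) in tumors and at 10, 15, 14, 12 and 18 in knockout alpha cells, while Manf, a secreted factor of the unfolded protein response, was at 88 to 145 against 377, 1267, 345, 363 and 489. Sterol and fatty acid synthesis overlapped in 22 of 25 genes (88%). Of 23 hormone and nutrient receptors, 20 overlapped (87.0%). Both shares are near the 80.8% over all symbols. Casr, the calcium-sensing receptor that amino acids also act on, was at 417, 259, 1317, 1341 and 2025 in knockout alpha cells and at 3941 to 5676 (median 4726) in tumors. Gpr142, a receptor for aromatic amino acids, was at 1789 to 4524 (median 2902) in tumors against 4851 to 7997.

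Lysosomal genes were mostly higher in tumors than in non-tumor tissue. Of 32 genes of the lysosome and its proton pump, 8 (25%, beside 10.3% over all symbols) were nearer the top in tumors than in knockout alpha cells. The reverse held for 6 (18.8%, beside 8.9%). By limma 21 of the 32 were higher in tumors than in non-tumor tissue and 1 was lower. Over all symbols tested 31.3% were higher and 24.3% lower. The counts against knockout alpha cells became 7 and 1 with the heterozygous libraries added and 9 and 10 without knockout alpha libraries 1 and 2. The members named next are from those nearer the top in tumors, and the 6 in the other direction are not reported here. Psap, the precursor of the saposins, was at 45 to 86 (median 74) in tumors and at 1018, 3528, 445, 445 and 353 in knockout alpha cells. Ctsb, cathepsin B, was at 63 to 121 (median 94) against 319, 400, 298, 313 and 160. Npc2, a cholesterol carrier of the lysosome, was at 95 to 154 (median 114) against 368, 223, 308, 296 and 205. Macrophages also express these genes strongly, and the macrophage gene C1qa, at 146 to 678 in tumors, lay at 142 to 1701 in non-tumor tissue; its part was not tested.

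Few symbols were placed apart from both references at once. In tumors, 247 of the 13645 symbols tested (1.81%) were nearer the top than in knockout alpha cells by 2-fold without overlap and higher than in non-tumor tissue by limma, and 68 (0.498%) were further from the top than both. Among the 10 with the largest smaller gap, Eef1a2 (chr2:181147653-181157014 in GRCm38), an elongation factor of neurons, muscle and endocrine cells, was at 50 to 107 (median 73) in tumors, at 444, 287, 380, 467 and 469 in knockout alpha cells and at 1345, 3708 and 1465 in heterozygous cells. Its limma log2 difference from non-tumor tissue was 7.06 ± 0.17 (SE, adjusted p = 1.26e-13). Zwint, a kinetochore gene that neurons also express, was at 105 to 489 (median 254) against 2307, 2041, 1313, 1385 and 1892 (limma 3.67 ± 0.25, adjusted p = 6.29e-09). Bambi, a decoy receptor for TGF-beta family ligands, was at 604 to 1221 (median 851) against 6891, 3830, 8195, 6290 and 5163 (limma 3.02 ± 0.19, adjusted p = 3.05e-09). For each of Eef1a2, Zwint and Bambi all 7 tumors lay above every other library.

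Pgrmc1, a haem-binding membrane protein, was at 187 to 303 in tumors and at 3251, 4354, 1424, 860 and 1450 in knockout alpha cells. Atp2a3, a calcium pump of the endoplasmic reticulum, was at 286 to 457 against 858 to 2522. Rundc3a, a neuronal and endocrine adaptor gene, was at 216 to 621 against 759, 3641, 3194, 2191 and 1398. Wdr6, Morf4l2 and Krt7 also met the rule. For Morf4l2 all tissue lay above all alpha cells. Mgp, matrix Gla protein of vessel walls and fibroblasts, was at 85 to 579 (median 153) in tumors against 3344 or lower in knockout alpha cells and 477 to 3246 in non-tumor tissue. It belongs to the fibroblast and mural list, of which 3 of 22 genes met the same rule.

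Of the symbols further from the top than both references, several were ribosomal protein genes, which are uncertain for the reason given below. Pcbd1, a cofactor of the HNF1 transcription factors, was at 296 to 508 (median 434) in tumors, at 75, 44, 64, 78 and 154 in knockout alpha cells and at 158 to 354 in non-tumor tissue (limma log2 difference -0.85 ± 0.16 SE, adjusted p = 0.000352). Dap, a death-associated protein gene, was at 356 to 715 (median 586) against 119, 268, 156, 149 and 136 (limma -1.91 ± 0.20, adjusted p = 7.33e-07). Sec61b, a subunit of the channel into the endoplasmic reticulum, was at 1960 to 2979 (median 2326) against 595, 1681, 753, 805 and 713 (limma -0.81 ± 0.18, adjusted p = 0.00133). In non-tumor tissue Sec61b was at 934 to 2064.

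**Figure D5:**
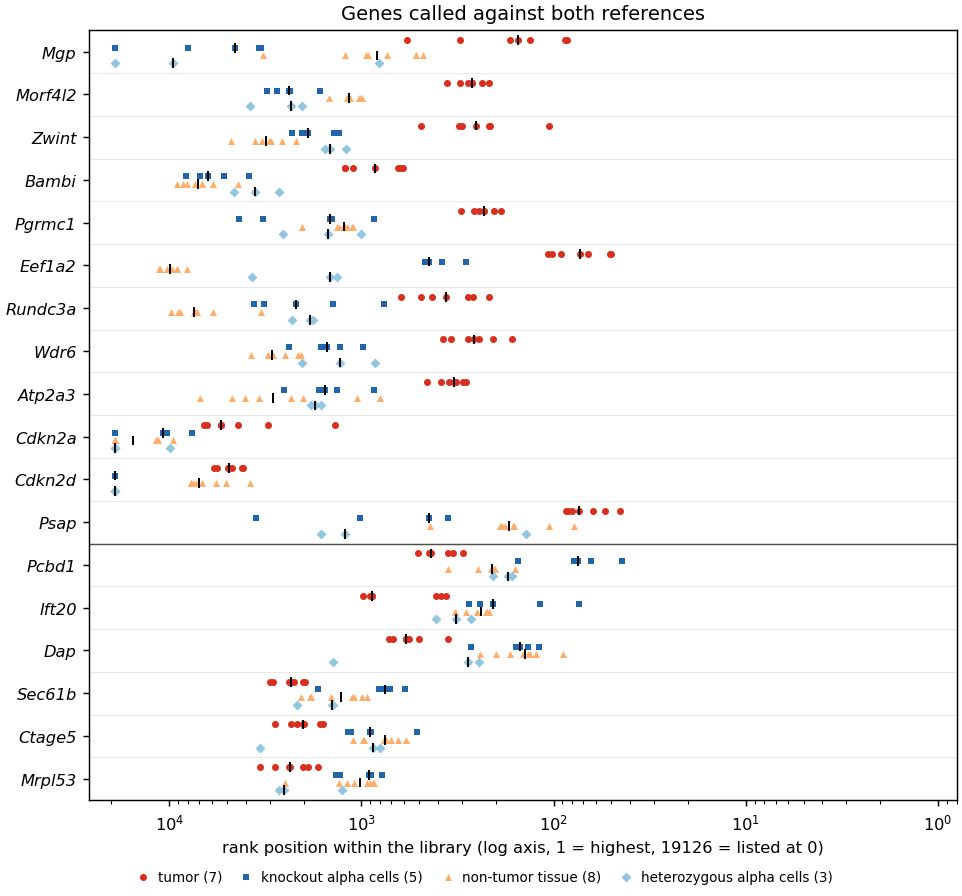
Rank position (log axis, 1 = highest, 19126 = listed at 0) in every library for genes called nearer the top in tumors than in both knockout alpha cells and non-tumor tissue (upper block) and further from the top than both (lower block); each point is a library and the black bars are group medians. In the upper block the 7 tumors lie above all other libraries for Zwint, Bambi, Pgrmc1 and Eef1a2.

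Rnasek, Tmsb15b2, Tmsb15l, Cox17 and Hist1h2bc were listed at 0 in all 15 tissue libraries and lay at 9 to 763 in knockout alpha cells. Altogether 8 symbols were within position 3000 in all 8 alpha cell libraries and at 0 in at least 14 of 15 tissue libraries, and 2 were the reverse. Ribosomal protein genes have many near-identical copies. Of 63, 34 (54.0%, beside 8.9% over all symbols) were nearer the top in every knockout alpha library and 13 (20.6%, beside 10.3%) in every tumor. For 24 of the 34 and for all 13 the whole tables were apart. Rpl7 was at 126 to 268 in tumors and at 5038 to 7068 in knockout alpha cells, while Rpl41 was at 8479 to 12545 and at 85 to 181. Genes of the respiratory chain were called as often in either direction, 13 and 13 of 74. This was a share of 17.6% each way, beside 10.3% nearer the top in tumors and 8.9% in knockout alpha cells over all symbols. Cox6c was at 872 to 1448 in tumors against 34 to 190, and Ndufb11 at 118 to 256 against 1148 to 2576. Both genes held those places in non-tumor tissue as well, at 932 to 2096 and at 127 to 197. How either table counted reads that map to several places is not given in the sources used here, and its part was not tested.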

How the data were processed

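Bulk RNA-seq (TruSeq RNA libraries per the labels' protocols) was used as 2 tables of RPKM values that the authors deposited, one of sorted alpha cells with 28096 rows and one of pancreatic tissue with 22412 rows. The submitters' notes on processing name GSNAP, GRCm38 and CASAVA 1.8 without their order; the counting step is not given in the sources used here. Low tumor RPKM values gave whole reads within 0.03 read for 99.4% of 15982 genes, and the tumors then hold at least 5018481 to 8258156 reads; the depth of the alpha cell libraries is unknown. Groups came from the labels. No table column was left without a sample.

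Rows were matched by equal symbol, and symbols turned into dates or found in 1 table were left out (8646 of sorted cells, 3260 of tissue). The 19126 shared symbols were ranked within each library, tied values sharing the lowest position. Tumors and knockout alpha cells were compared by overlap of positions, with no test across tables. Tumors and non-tumor tissue were compared with limma 3.58.1 (R 4.3.3, trend) on minus log2 position over symbols above 0 in at least 7 of 15 libraries, with Benjamini-Hochberg adjustment at 0.05; the script was tested on simulated data. Values with their SE are limma log2 differences of positions.

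Genes named are from 12 fixed ones, the 10 with the widest gap in each direction with a median position within 3000, the 10 with the widest smaller gap against both references in each direction, and up to 2 per list and direction. Chosen after their values were seen were Apoe, Asns, Atf4, B2m, Bag3, Cadps, Cav1, Cd2, Cdh5, Cdkn2a, Cdkn2c, Chga, Chgb, Csf1r, Ctsb, Dapl1, Daxx, Dpp4, Etv1, Fap, Gc, H2-D1, H2-K1, Hspa1a, Hspa1b, Hspb1, Hspd1, Hspe1, Hsph1, Irx2, Mtor, Npc2, Pcsk2, Rab3d, Reg3b, Scg3, Setd2, Sez6l2, Slc38a4, Slc38a9, Slc7a10, Tmem27, Top2a and Vgf. Some genes that the rule or the lists gave are not reported here. The members and all 35 lists were chosen with earlier results of these data known. Alternatives were other symbol sets, scalings, ties, references and left-out libraries. Coordinates are from GENCODE on GRCm38 and promoters from RefSeq on GRCm38.p6.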

Additional observations from a re-analysis of the deposited data

Results flagged for a closer look

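In 25 of 297 groups of values one library lay far from the others of its group by Dixon's gap test, which chance does in about 1 in 20. All values are rank positions. In knockout alpha library 2 these were Slc3a2 at 3299 (others 909 to 1007), Krt7 at 1719 (598 to 787), Manf at 1267 (345 to 489), Vamp2 at 444 (183 to 227) and Men1 at 1225 (4620 to 6099). The same library had Cox6c at 34, Hspb1 at 5033 (6086 to 6468), Tmsb15l at 14 and Reg3b at 8236, the last listed at 0 in the others. In library 5, Apoe was at 112 (others 2820 to 8953) and Pycr1 at 9946 (5224 to 6274). In library 3, Cpa1 was at 5014, Pcsk2 at 27 and Reg2 at 7625. In library 1, Fap was at 1120 and Ins1, a near-identical copy of Ins2, at 85 (others 22 to 32). Gcgr was at 10871 in library 4 alone.

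Among tumors, tumor 3 had Sparc at 932 (others 96 to 219), Col4a1 at 2864 (174 to 574) and Hspb1, a small heat shock protein gene, at 5440 (8798 to 10638). Tumor 1 had Dapl1 at 1048 (25 to 118), tumor 5 had H2-D1 at 61 (88 to 116), and tumor 7 had Vamp2 at 1668 (911 to 1088) and Slc7a10 at 19126, that is at 0. The erythroid list had a geometric mean position of 982.1 in tumor 2 against 5278 or lower in the ranking in the other tumors.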

How the results depend on the processing

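Leaving out each of the 12 libraries in turn gave 2016 to 2403 symbols nearer the top in tumors and 1720 to 2113 in knockout alpha cells, 953 to 1088 and 755 to 866 with the 2-fold limit, and 231 to 274 and 61 to 89 apart from both references; leaving out each of the 15 tissue libraries gave 3958 to 4455 higher and 3111 to 3541 lower than non-tumor tissue. When libraries are left out the counts without overlap, before the 2-fold limit, can only stay or rise, so their ranges do not measure stability. Ranking only symbols above 0 in most libraries of each group gave 1304 nearer the top in tumors and 104 further from it than both references. On centred log2(RPKM + 1), 8722 were higher in knockout alpha cells, 431 lower than both and 6358 lower than non-tumor tissue; on log2(RPKM + 0.1) these were 6558, 244 and 5419, with 1714 and 1333 past 2-fold. Ties at their mean position gave 5442 nearer the top in knockout alpha cells, 3482 of them at 0 in all 12 libraries, and leaving out knockout alpha libraries 1 and 2 gave 2658, with 110 further from the top than both. An alternative chosen after seeing the data left out the symbols that part all tissue from all alpha cells. It gave 1109 and 728, and 401 and 223 past 2-fold. Ranks were kept as they were, so these are the main counts less those symbols. The causes were not tested. The other alternatives kept these counts within 1.5 times. Of 2448 values for the named genes, 2283 moved by less than the spread of positions between libraries, 165 moved further and 0 turned the direction of a call. Leaving out libraries, or leaving out symbols with ranks kept, cannot turn such a call, so for those alternatives the 0 was fixed in advance. Where symbols were left out and the rest ranked again, a call could turn. On the log2(RPKM) scales a difference of values was set against a spread of positions, which are unlike units. With the replicate block, 3902 symbols were higher and 3022 lower than non-tumor tissue. Deviations of same-numbered libraries correlated at -0.17 to 0.12, and 1 of 7 matched its own number best. Tumor and non-tumor tissue of the same mouse need not deviate together, so this cannot tell whether equal numbers mean the same mouse. No block was applied to the comparison of tumors with knockout alpha cells, which has no test. The depth of the alpha cell libraries is unknown, so a symbol listed at 0 there may be present below detection.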

Other observations

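Of 13 metallothionein and zinc transporter genes, 4 (30.8%) were nearer the top in every tumor and 1 (7.69%) in every knockout alpha library. Over all symbols these shares were 10.3% and 8.9%. By limma 9 of the 13 were lower in tumors than in non-tumor tissue, beside 24.3% of all symbols tested. Of 27 genes of amino acid breakdown and the urea cycle, 4 (14.8%) were nearer the top in tumors and 2 (7.41%) in knockout alpha cells, near the 10.3% and 8.9% over all symbols. Their median of 0.03 turned to -0.11 on the centred log2(RPKM + 1) scale, where all symbols had -0.56. Of 26 hypoxia and glycolysis genes, 8 (30.8%) were nearer the top in tumors and 5 (19.2%) in knockout alpha cells, with a median of 0.32 that turned to -0.16 on that scale. Of 14 beta cell genes, 0 were nearer the top in every tumor and 1 (7.14%) was in every knockout alpha library.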
